A study of Asparagus officinalis with 3 samples.

Results

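The annotated target unigenes of conserved miRNAs in Asparagus officinalis are assembled transcript sequences that at least 1 miRNA of a conserved family pairs with in the deposited target table and that carry a database description. Of the 194 unigenes in that table, 101 met both conditions. Another 46 were paired with a conserved miRNA but had no description, and 47 were paired with candidate miRNAs only. The 101 unigenes had 171 alignment rows of the table's 463, with 76 miRNAs of 19 conserved families out of 26. The miRNA values came from 1 female and 1 male small RNA library. Each was made from leaves, roots, stems and flowers of 3-year-old greenhouse plants of the cultivar Grand, pooled over 10 plants, and no agent was applied to either sex. A degradome library of both sexes mixed was not analysed here. A listed pair is thus an alignment of sequences, and no evidence that the unigene is cut was used. With 1 library per sex there is no estimate of the variation between plants, so no p-value is given, and a difference is described only by its size. The abundance of the unigenes themselves was not measured in these files.

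Plant miRNAs are short RNAs that guide an Argonaute protein to messenger RNAs with a nearly complementary site, and Argonaute then cuts the messenger opposite bases 10 and 11 of the miRNA or blocks its translation. Families that are old in land plants keep the same kind of target in species after species, and many of those targets are transcription factors of development. The miR156 family pairs with SPL genes, which time the change from juvenile to adult growth and flowering, miR166 with class III homeodomain-leucine zipper (HD-ZIP III) genes of leaf polarity and vascular tissue, miR167 with auxin response factors, and miR396 with growth-regulating factors.

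Each row of the table is an alignment with a score. Counting 1 for a mismatch, 0.5 for a G:U pair and 2 for a gap gave the deposited score in all 463 rows, so pairing is closer where the score is lower. The scores of the table lay between 0.5 and 3. The sites below are those of the unigenes that the following results turn on, written on the strand that pairs with the miRNA. Capitals mark bases that form neither a Watson-Crick nor a G:U pair with the miRNA named, or that stand opposite a gap.
UN22221 with aof-miR171f: gauauuggcgcggcucaauca
UN02447 with aof-miR156k: gugcucAcucucuucuguca
UN01411 with aof-miR156j: gugcucUcucucuucuguca
UN12031 with aof-miR396f: cCguucaagaaagccugugga
UN50672 with aof-miR394: ggagguCgacagaaugccaa
UN38339 with aof-miR319a: gggagcucccuucagCccaa
UN21982 with aof-miR172a: Cugcagcaucaucaggauucu
UN19434 with aof-miR166a-7: Ugggaugaagccugguccgga
UN15466 with aof-miR393b: agacaaugcgaucccuuugga
UN02784 with aof-miR167e: uuagaucaGgcuggcagcuuG
UN12573 with aof-miR167e: uGagaucaGgcuggcagcuuG
UN02638 with aof-miR408a: gcuaAgggaagaggcagugca
UN00357 with aof-miR156k: guCuuuucuuucuucuguca
UN10001 with aof-miR827c: uUuuAguugauggucaCcuaa

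The miRNAs that pair with these sites are shown with the seed, bases 2 to 8 from the 5′ end, in capitals. The 20-base miRNAs aof-miR156j and aof-miR156k have the same seed and differ from each other by 1 base in the 3′ part, and the 21-base aof-miR156a and aof-miR157a start 1 base earlier, so that their seed is shifted by that base.
aof-miR156j: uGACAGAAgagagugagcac
aof-miR156k: uGACAGAAgagagagagcac
aof-miR156a: uUGACAGAagagagugagcac
aof-miR157a: uUGACAGAagauagagagcac
aof-miR166a-7: uUCGGACCaggcuucauuccc
aof-miR166d-1: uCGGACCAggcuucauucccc
aof-miR167e: gAAGCUGCcagcaugaucuga
aof-miR171a: uUGAGCCGcgucaauaucucc
aof-miR171f: uGAUUGAGccgugccaauauc
aof-miR172a: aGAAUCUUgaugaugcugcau
aof-miR319a: uUGGACUGaagggagcuccc
aof-miR393b: uCCAAAGGgaucgcauugaucu
aof-miR394: uUGGCAUUcuguccaccucc
aof-miR396b-2: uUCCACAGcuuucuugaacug
aof-miR396b-3: uUCCACGGcuuucuugaacug
aof-miR396f: uCCACAGGcuuucuugaacug
aof-miR408a: uGCACUGCcucuucccuggc
aof-miR408b: uGCACUGCcucuucccuggcu
aof-miR827c: uUAGAUGAccaucaacaaaca

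By the words of their descriptions, 19 of the 101 unigenes were transcription factors, 21 enzymes, 7 transport proteins, 8 signalling proteins and 46 other proteins, of which 14 were uncharacterized. The known kind of target of the pairing family was named in 15 of the 101 descriptions, or 14.9%. That kind was set for a whole family, whichever arm of its precursor a miRNA comes from. It was thus also applied to unigenes paired by a sequence of the other arm, such as the 6 with aof-miR396a-3p only. The exact (Clopper-Pearson) 95% interval, 8.56 to 23.3%, covers the size of the list only. It treats the unigenes as independent, which they are not, since several share a site and miRNA. Counting unigenes with the same site and miRNA once left 9 of the known kind and 69 others. These 15 comprised 5 auxin response factors, 3 SPL genes, 2 growth-regulating factors and 1 each of an HD-ZIP III gene, a scarecrow-like gene, a RAP2-7-like gene, a transport inhibitor response gene and an F-box gene. Synonyms added after the descriptions had been read (GRL2, GRF domain, transcriptional factor B3 and chemocyanin) brought the count to 21, or 20.8%. The descriptions of the other 80 unigenes did not name a known target kind of their family. They include the 14 uncharacterized proteins, whose descriptions cannot place them in or outside a known kind, and no known kind was set for miR477.

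The families contributed unequally. The miR396 family paired with 24 unigenes in 43 rows, miR156 with 20 unigenes in 23 rows and miR166 with 12 unigenes in 34 rows. The miR167 family paired with 7 unigenes, 5 of them auxin response factors by name, while none of the 5 miR159, 4 miR319, 3 miR164, 3 miR160, 4 miR482 or 5 miR827 unigenes was described as the known target kind (MYB, MYB or TCP, NAC, auxin response factor, disease resistance protein and SPX domain protein). All 3 miR160 unigenes were paired by aof-miR160c alone, which made up 3.71% of the female and 1.18% of the male value of the 4 listed miR160 sequences. No other miR160 sequence had a row at an annotated unigene, so these 3 do not show what the rest of the family pairs with. The 46 unigenes without a description cannot be placed in either class.

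**Figure D1:**
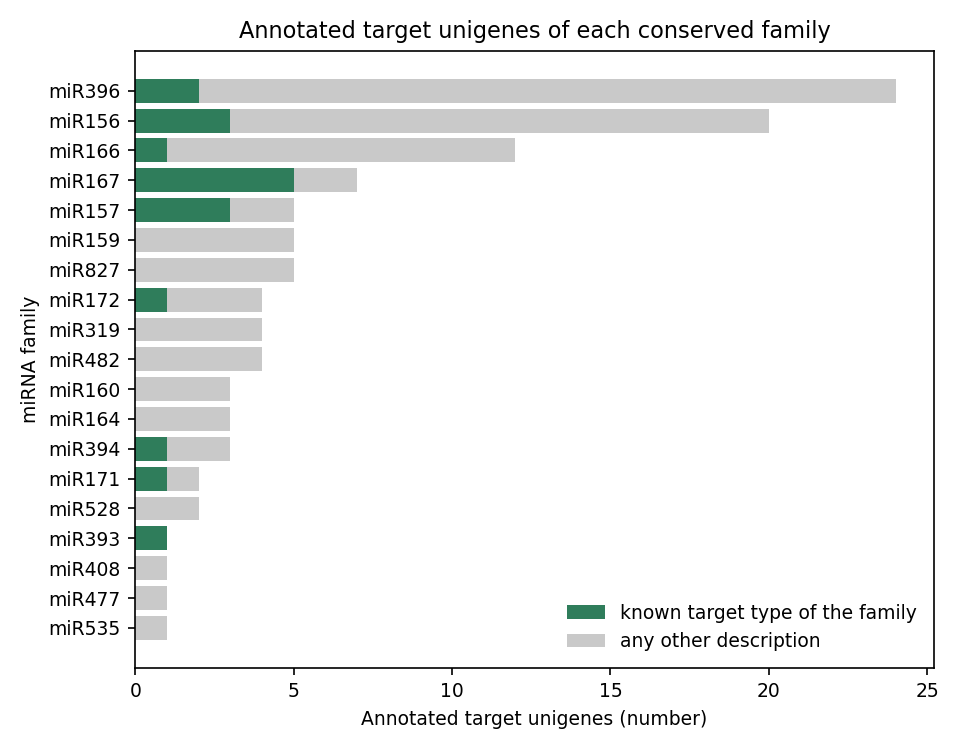
Number of annotated target unigenes (x axis) for each conserved miRNA family (y axis), split into those described as the known target kind of the family (green) and all others (grey). The miR396, miR156 and miR166 families have the longest bars, with 24, 20 and 12 unigenes, and unigenes that 2 families pair with are counted in both.

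Pairing was closest in the transcription factors. Their median lowest score was 1.5, against 3 in enzymes, 3 in transport proteins, 2.5 in signalling proteins and 3 in other proteins. A row with a score up to 1 was present in 9 of the 19 transcription factors, against 1 of 21 enzymes and 2 of 46 other proteins. Unigenes with the same site are not separate observations. Of those 9, 5 were growth-regulating factor unigenes with 1 identical site, and the SPL genes UN01411 and UN07692 shared another. Of the 8 signalling proteins, 4 shared 1 aof-miR156k site. Over all 101 unigenes, 12 had a score up to 1. Of the 15 unigenes of the known target kind, 7 had a score up to 1 and 2 had no score under 3, whereas 5 of the other 86 had a score up to 1 and 57 had no score under 3. Of those 5, the growth-regulating factor homologues UN04890, UN23164 and UN38955 (GRL2) are of the known kind by the wider words, and the remaining pair was UN38339, described as an ectonucleotide pyrophosphatase/phosphodiesterase, and UN22259, a conserved hypothetical protein. Counted by rows, the median score was 2.5 over the 48 rows of the known kind and 3 over the 123 other rows. The 15 unigenes had more rows each on average than the other 86, and a lowest score can only fall as rows are added. The median number of targeting miRNAs was 1 in both sets. With unigenes of the same site and miRNA counted once, the median lowest score was 1.5 for the known kind and 3 for the others. Rows of 1 unigene share a site, except in UN15466, and with 1 row for each unigene and family the median of the known kind was 1.25.

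**Figure D2:**
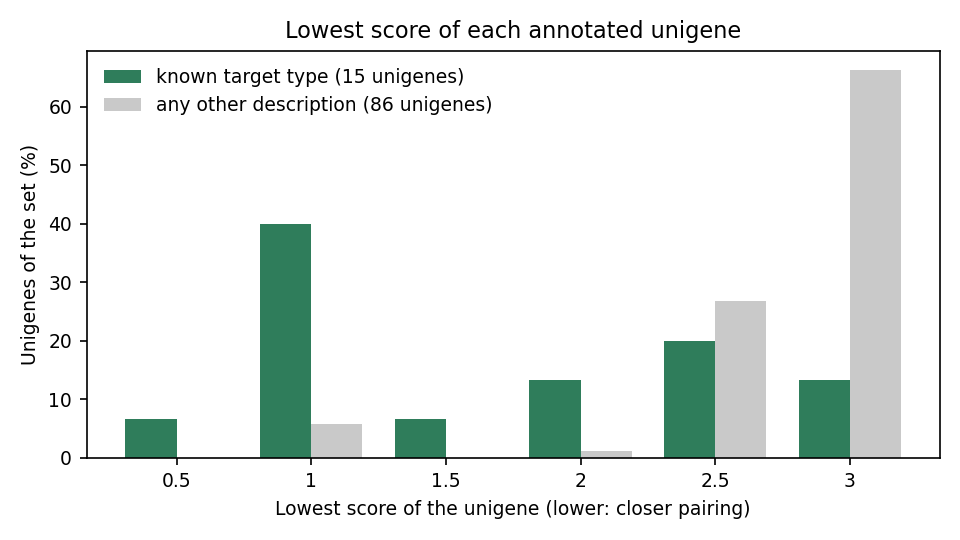
Share of unigenes (y axis, percent of each set) by the lowest score over their rows (x axis, a lower score is closer pairing), for the 15 unigenes of the known target kind (green) and the other 86 (grey). The grey bars stand mostly at 3, where 57 of 86 unigenes lie, while 7 of the 15 green unigenes lie at 1 or below.

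The share of fully paired stretches differed as well. Best rows of the known kind had fewer imperfect pairs in all, and that number was not held equal. The shares below therefore do not separate the position of imperfect pairs from their number. In the best row of each unigene, bases 2 to 8 of the miRNA were all in Watson-Crick pairs in 13 of the 15 unigenes of the known kind (86.7%) and in 31 of the other 86 (36%). Bases 10 and 11 were both in such pairs in 15 of 15 (100%) and in 68 of 86 (79.1%), and no best row had a mismatch at either base, the exceptions being G:U pairs. The imperfect pairs of the known kind lay mostly at base 1 and from base 12 on. Counting unigenes with the same site and miRNA once, bases 2 to 8 were fully paired in 7 of 9 (77.8%) and in 17 of 69 (24.6%), and bases 10 and 11 in 9 of 9 (100%) and in 61 of 69 (88.4%). The rules by which rows were picked are not given in the table.

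**Figure D3:**
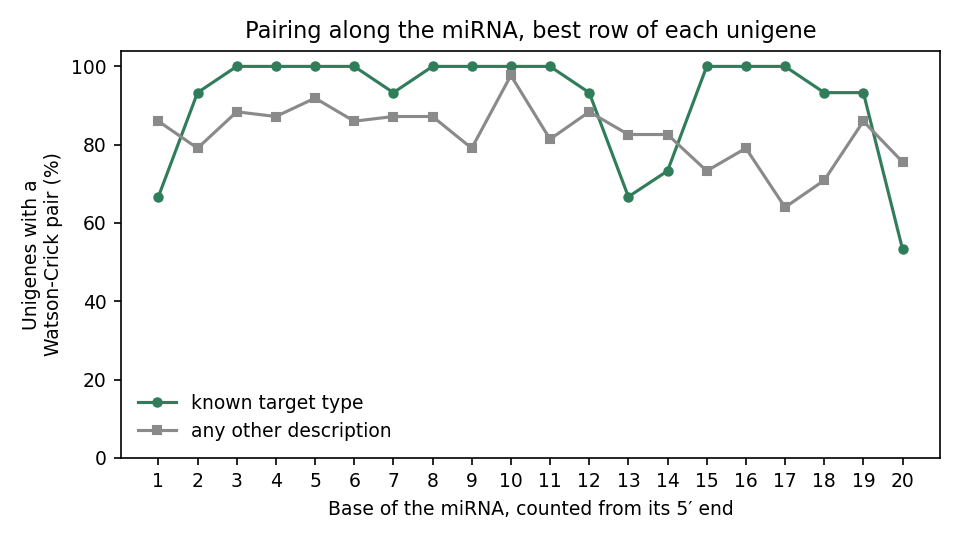
Share of unigenes whose best row has a Watson-Crick pair (y axis, percent) at each base of the miRNA counted from its 5′ end (x axis), for the 15 unigenes of the known target kind (green circles) and the other 86 (grey squares). The green line is at 100% at bases 10 and 11 and falls to 66.7% at base 13, while the grey line is at 97.7% at base 10 and 81.4% at base 11.

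Among the SPL genes, UN02447, UN01411 and UN07692 were each paired by miR156 and miR157 at 1 site. UN01411 and UN07692 have the same 20-base site, and the site of UN02447 differs from it by the base in capitals above. The table listed aof-miR156j, aof-miR156a and aof-miR157a for UN01411 and UN07692, at a score of 1 each, and aof-miR156k, aof-miR156a and aof-miR157a for UN02447, at 1, 1 and 3. The 4 miRNAs had very different values. Aof-miR156j was at 93.29 TPM in female plants against 92.08 TPM in male plants, aof-miR157a at 18.98 TPM in female plants against 22.9 TPM in male plants, aof-miR156k at 59.22 TPM in female plants against 2.51 TPM in male plants, and aof-miR156a at 0.23 TPM in female plants against 7.69 TPM in male plants. TPM here is the read number of a sequence scaled to the size of its library, with no correction for length. Summed over the miRNAs listed, UN02447 thus had 78.43 TPM in female plants against 33.1 TPM in male plants, a ratio of 2.37, while UN01411 and UN07692 had 112.5 TPM in female plants against 122.67 TPM in male plants, a ratio of 0.917.

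That difference among the SPL genes came from pairs that the table leaves out. None of the 463 rows had a score of 0, although aof-miR156j is the perfect complement of the UN02447 site and aof-miR156k that of the UN01411 and UN07692 sites. A search of all 194 miRNAs against the site bases printed in the table found 43 such perfect pairs in 17 unigenes, none of them listed, 3 of which concern conserved miRNAs and annotated unigenes, namely the SPL genes. With the perfect pairs added, each SPL gene is paired by the same 4 miRNAs and has 171.72 TPM in female plants against 125.18 TPM in male plants, a ratio of 1.37. UN02447 is then no longer over 2-fold apart. The search found 18 further unlisted pairs with a score up to 3 at annotated unigenes, 21 in all in 13 unigenes. For UN19434 they include aof-miR166g-3p, at 5424.1 TPM in female plants against 5518.95 TPM in male plants, with a gap in the site and a score of 2.5.

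Of the HD-ZIP III genes, UN19434 was described as a class III homeobox-leucine zipper protein of Asparagus officinalis itself, with an e-value of 3e-202. It was paired by 17 members of the miR166 family, more than any other annotated unigene, and carried the highest sum, 32560.36 TPM in female plants against 27171.69 TPM in male plants (ratio 1.2). The most abundant of these, aof-miR166d-1, was at 26780.49 TPM in female plants against 21203.78 TPM in male plants and gave 82.2% of the female and 78% of the male sum. It paired at a score of 3 with 2 mismatches and 2 G:U pairs, whereas the closest pairs, at a score of 2, included aof-miR166a-7 at 326.96 TPM in female plants against 437.82 TPM in male plants. At this site a pair of miR166 members had male values over 2-fold above their female values: aof-miR165a, at 661.69 TPM in female plants against 1436.29 TPM in male plants, and aof-miR166k-1, at 1.37 TPM in female plants against 15.37 TPM in male plants.

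The growth-regulating factors, which promote cell proliferation in young leaves, were 6 unigenes under the names growth-regulating factor (UN16563, UN12031), GRL2 (UN38955, UN23164, UN04890) and GRF domain (UN02474). All but UN02474 carry the 21-base site shown for UN12031, and aof-miR396f paired with it at a score of 1 in each. This miRNA was at 3.66 TPM in female plants against 18.2 TPM in male plants, a ratio of 0.201. For UN12031, UN23164, UN04890 and UN02474 it was the only miRNA listed, so these 4 had the same sums and were counted as higher in the male library. UN16563 and UN38955, where the site lies on the minus strand of the assembled sequence, had 7 further miR396 members, each with a gap and a score of 3. These include aof-miR396b-2, at 2214.18 TPM in female plants against 3261.93 TPM in male plants, and aof-miR396b-3, at 2436.88 TPM in female plants against 2502.37 TPM in male plants. Their sums were therefore 4731.77 TPM in female plants against 5896.07 TPM in male plants, a ratio of 0.803. The same site bases thus gave sums that differ over 100-fold. Among the annotated unigenes, all 16 rows with a gap on the miRNA side were on the minus strand and 0 on the plus strand. Searching the plus-strand sites of UN12031, UN23164 and UN04890 found aof-miR396b-5 and aof-miR396k with a gap at a score of 3, which raised the sums to 45.04 TPM in female plants against 50.98 TPM in male plants, a ratio of 0.883. The remaining 5 could not be searched there, since their alignment reaches past the bases printed.

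The auxin response factors, which switch genes on or off in answer to auxin, were UN02784, UN45321, UN21824, UN12573 and UN04709, with UN08763 described as a transcriptional factor B3 family protein. They carried 2 versions of 1 site. UN02784, UN45321 and UN21824 had the version with a score of 2.5, and UN12573, UN04709 and UN08763 the version with 1 further mismatch and a score of 3. The only miRNA listed for all 6 was aof-miR167e, at 18.29 TPM in female plants against 13.18 TPM in male plants, a ratio of 1.39. It made up 1.12% of the female and 1.02% of the male value of the 7 listed miR167 sequences, which summed to 1635.72 TPM in female plants against 1286.65 TPM in male plants. That share describes the listed rows and not how much of the family can pair with these sites. Unlisted pairs were sought only within the printed site bases, so a miR167 sequence reaching past them could not be searched. The paper also lists miR167a and miR167c beside miR167e for its auxin signalling targets, UN12573 among them. Aof-miR167e also paired with UN15010, a pyrrolidone-carboxylate peptidase, at a score of 3.

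The scarecrow-like gene UN22221 belongs to the GRAS family, regulators of meristem and root development. It had the lowest score of all annotated unigenes, 0.5 with aof-miR171f, which left 1 G:U pair and no mismatch. This miRNA was at 128.27 TPM in female plants against 39.06 TPM in male plants, a ratio of 3.28. Aof-miR171a, which pairs 3 bases away at a score of 2, was at 324.44 TPM in female plants against 168.01 TPM in male plants. Over its 4 miRNAs UN22221 had 463.46 TPM in female plants against 213.34 TPM in male plants, a ratio of 2.17. Of the transcription factors with at least 100 TPM in a library, it was the only one over 2-fold apart, and its ratio was 1.92 when values were rescaled by the median ratio of all listed miRNAs, 1.13.

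UN21982, described as a RAP2-7-like ethylene-responsive factor of the APETALA2 group that holds back flowering, was paired by aof-miR172a at a score of 1.5, with 72.94 TPM in female plants against 82.04 TPM in male plants (ratio 0.889). The last transcription factor, the Barley B recombinant homologue UN04493, was paired by aof-miR396a-5p alone at a score of 3, with 24.24 TPM in female plants against 60.55 TPM in male plants (ratio 0.4).

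Among the signalling proteins, UN15466 was described as a transport inhibitor response protein, the F-box receptor of auxin. It was paired on the plus strand by aof-miR393b and aof-miR393a at scores of 2 and 2.5, and at another place on the minus strand by aof-miR319e at a score of 3. Aof-miR393b was at 37.95 TPM in female plants against 9.1 TPM in male plants, a ratio of 4.17, and aof-miR393a at 5.49 TPM in female plants against 2.35 TPM in male plants, a ratio of 2.34. With aof-miR319e, at 54.87 TPM in female plants against 29.96 TPM in male plants, the sum was 98.31 TPM in female plants against 41.41 TPM in male plants, a ratio of 2.37. The score of 2 for aof-miR393b is 1 gap with no mismatch. The other signalling proteins had scores of 2.5 or 3 and were 3 kinases, 3 PH domain proteins and a hypersensitive-induced response protein.

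Of the transport proteins, UN02638 is a chemocyanin precursor, a small copper protein of the phytocyanin kind, and was paired by both miR408 members listed for an annotated unigene. Aof-miR408b was at 32.24 TPM in female plants against 170.99 TPM in male plants, a ratio of 0.189, and aof-miR408a at 7.09 TPM in female plants against 23.69 TPM in male plants, a ratio of 0.299. Its sum was 39.33 TPM in female plants against 194.68 TPM in male plants, a ratio of 0.202, and it was the only annotated unigene over 2-fold higher in the male library with at least 100 TPM there. UN00195, the chloroplast electron carrier cytochrome b6, was paired by aof-miR171f at a score of 3 with 3 mismatches, and so had that miRNA's 128.27 TPM in female plants against 39.06 TPM in male plants. UN32824, a protein with a kinesin motor domain, was paired by 5 miR166 members at scores from 2.5 to 3, with 266.14 TPM in female plants against 157.03 TPM in male plants (ratio 1.69). UN48234, an extended synaptotagmin, and the aldehyde dehydrogenase UN14624 shared aof-miR159a and a sum of 1347.16 TPM in female plants against 1159.42 TPM in male plants, at scores of 3. UN10479, an alpha-soluble NSF attachment protein of vesicle fusion, had 35.21 TPM in female plants against 37.18 TPM in male plants.

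The enzymes had scores of 2.5 or 3 with the exception of UN38339, which was paired at 1 site by 7 miRNAs, 5 of miR319 and 2 of miR159, with scores from 1 to 3. The 2 families have related sequences, and known targets of miR319 and miR159 are TCP and MYB genes. The closest pairs at UN38339 were aof-miR319a, at 23.32 TPM in female plants against 15.06 TPM in male plants, and aof-miR319b, at 10.52 TPM in female plants against 13.8 TPM in male plants. The most abundant was aof-miR319c, at 128.27 TPM in female plants against 81.57 TPM in male plants, and the sum was 274.83 TPM in female plants against 198.75 TPM in male plants (ratio 1.38). UN10001, a 6-phosphogluconate dehydrogenase of the pentose phosphate pathway, and UN05184, an inorganic pyrophosphatase, carried the same site for aof-miR827a, aof-miR827b and aof-miR827c on opposite strands of their assembled sequences. Both had 480.38 TPM in female plants against 224.33 TPM in male plants, a ratio of 2.14 that was 1.89 after the same rescaling, of which aof-miR827c gave 377.95 TPM in female plants against 167.85 TPM in male plants. The score was 3 in each row, with 3 mismatches. UN00997, an aminocarboxymuconate-semialdehyde decarboxylase, was paired by aof-miR156k and aof-miR157a, with 78.2 TPM in female plants against 25.41 TPM in male plants (ratio 3.08). The neutral ceramidase UN19585 was paired by 2 miR396 members and had 64.93 TPM in female plants against 56.47 TPM in male plants.

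Of the other proteins, the F-box protein UN50672 was paired by aof-miR394 at a score of 1, with 231.16 TPM in female plants against 177.73 TPM in male plants (ratio 1.3). F-box proteins choose substrates for ubiquitin, and an F-box gene is the known miR394 target in Arabidopsis. A second F-box protein, UN19848, was paired by miR528 at a score of 3 and is not of the known kind for that family. UN22259 was paired by aof-miR482 at a score of 1, with 11.2 TPM in female plants against 14.43 TPM in male plants, and was the only annotated unigene that a candidate miRNA also paired with. UN05990, the endoplasmic reticulum chaperone BiP, was paired by aof-miR396b-3 and 2 rarer miR396 members with a gap and a mismatch, and had 2466.6 TPM in female plants against 2530.92 TPM in male plants (ratio 0.975). UN10366, a ribosomal protein L13, and UN49061, a villin that bundles actin, had scores of 2.5 and under 20 TPM in both libraries.

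**Figure D4:**
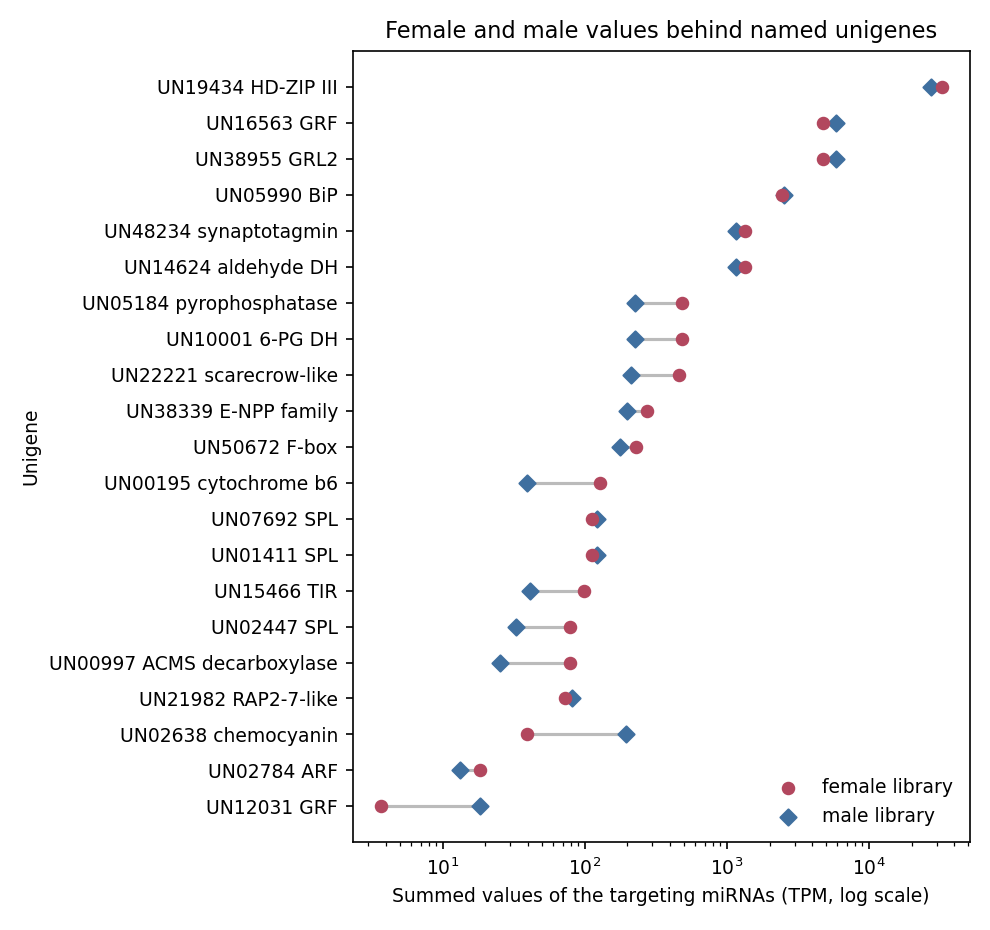
Summed values of the targeting miRNAs (x axis, TPM, log scale) for 21 named unigenes (y axis), with the female library as circles and the male library as diamonds. UN19434 lies highest, at 32560.36 TPM in female plants against 27171.69 TPM in male plants, and UN02638 and UN12031 are those with the male value over 2-fold above the female value.

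Across all annotated unigenes the sums covered a wide range. The highest of the 2 libraries reached 1000 TPM in 6 unigenes and 100 TPM in 20, while 11 unigenes were under 10 TPM in both. A single miRNA was listed for 76 of the 101 unigenes, and the 101 unigenes had only 51 different sets of targeting miRNAs, so that many of their values are 1 measurement repeated. Of the 76 targeting miRNAs, 22 (28.9%) were over 2-fold apart, against 30.9% of all 194 listed miRNAs. The female value was the larger in 13 of the 76 (17.1%), against 18% of all 194, and the male value in 9 of the 76 (11.8%), against 12.9% of all 194. By summed values, 43 of the 101 unigenes (42.6%) were over 2-fold apart, against 34.5% of all 194 unigenes of the table, which include them, and 25.8% of the 93 unigenes outside them. The female sum was the larger in 32 of the 101 (31.7%), against 25.8% of all 194, and the male sum in 11 of the 101 (10.9%), against 8.76% of all 194. The log2 ratio, female over male, had a median of 0.41 over the 101 sums and of 0.05 over all 194.

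**Figure D5:**
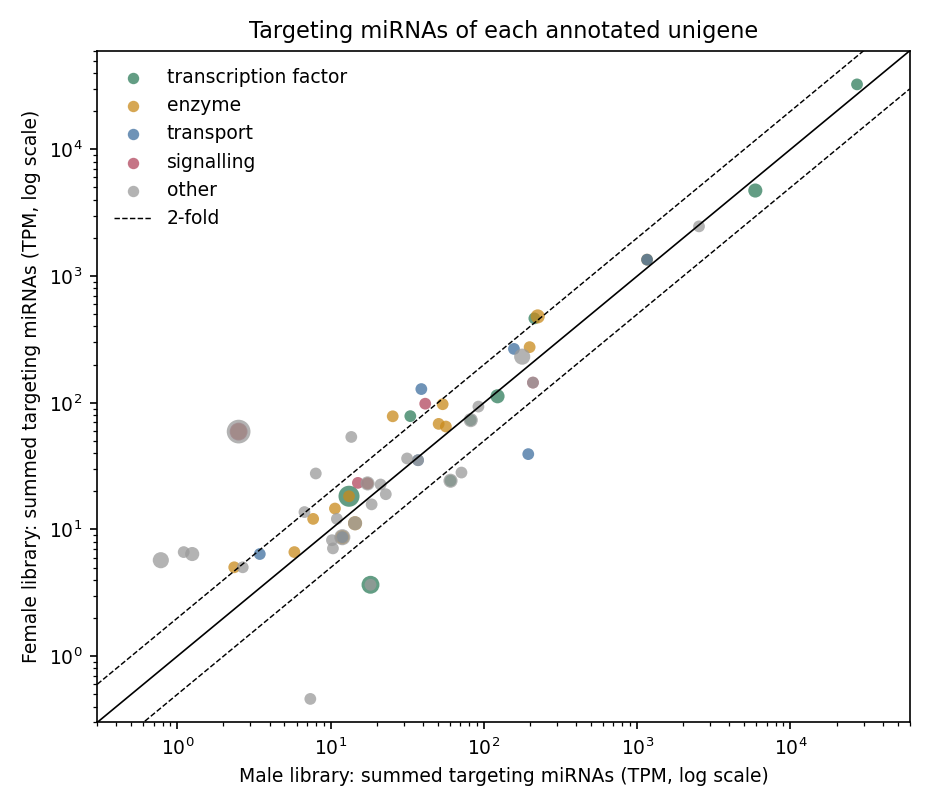
Summed values of the targeting miRNAs of each annotated unigene in the female (y axis) and male library (x axis), in TPM on log scales, coloured by group, with larger points where unigenes of a group have the same values. The solid line marks equal values and the dashed lines a 2-fold difference, and the large point at 59.22 TPM in female plants against 2.51 TPM in male plants is the set of unigenes paired by aof-miR156k alone.

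A single miRNA accounted for many of these calls. Aof-miR156k alone was listed for 15 of them, all over 2-fold higher in the female library by that miRNA's ratio of 23.6, which rests on its value in 1 library of each sex. The study also measured this miRNA by qRT-PCR and named it as an exception, with a far smaller excess in female plants than by sequencing. The qRT-PCR values were not used here. Without these 15, 28 of 86 unigenes (32.6%) were over 2-fold apart, 17 of them higher in the female library. With 1 unigene for each set of targeting miRNAs the share was 37.3%. The 15 comprised 3 enzymes, 4 signalling proteins and 8 other proteins, and 12 had a score of 2.5 and 3 a score of 3. Of the 15, 11 carried the identical 20-base site shown for UN00357, which was also present in 2 unigenes without a description. Beside the capital base it has 3 G:U pairs with aof-miR156k, the base sequence is made of C and U but for a few bases, and it differs from the SPL sites in several of them.

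The descriptions of these 11 unigenes named several unrelated proteins. For 9 of the 11 the top database hit was not a plant protein, among them PH domain proteins of the ciliate Ichthyophthirius multifiliis (UN01726, UN06719 and UN20652), a serine/threonine protein kinase of Salpingoeca (UN05458), clock of the prawn Macrobrachium rosenbergii (UN00510) and a polyQ-containing protein of Mus musculus (UN00357). The others were the 40S ribosomal protein S13 (UN07332), with a grapevine hit at 1e-78, and histone 2B of Asparagus officinalis (UN15310), at 7e-68. Only 1 of the other 90 annotated unigenes had a top hit outside plants. Full sequences of 2 of the 11 could be read. UN00357 (847 bases) and UN00510 (883 bases) were identical over an unbroken run of 138 bases that holds the site, with 2 bases before it and 116 after it, although their descriptions name unrelated proteins. The origin of the shared stretch was not tested.

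Members of miR396 paired with most of the unigenes that were higher in the male library. Of the 11 unigenes over 2-fold higher there, 5 were paired by aof-miR396f alone and 3 by aof-miR396a-5p alone, at 24.24 TPM in female plants against 60.55 TPM in male plants. The remaining 3 were UN43319, a HIPL1-like protein with both aof-miR396a-5p and a rarer miR396 member, UN02638 with miR408, and UN05073, a predicted protein whose aof-miR166a-5 was at 0.46 TPM in female plants against 7.37 TPM in male plants. With all unlisted pairs up to a score of 3 added, 7 of the 11 were over 2-fold higher in the male library. UN05073 then had 11.89 TPM in female plants against 21.33 TPM in male plants (ratio 0.557), through aof-miR166f-4, and UN12031, UN23164 and UN04890 were at 0.883 as given above. Low values rest on few reads. Values up to 60 TPM rose in steps of 0.229 TPM in female plants against 0.157 TPM in male plants (99.4% of 157 and 99.4% of 162 values within 0.0051 TPM), so that aof-miR156a in the female library was 1 step, aof-miR396f 16 steps in the female and 116 in the male library, and aof-miR156k 259 steps in the female and 16 in the male library.

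Of the 171 rows, 66 were on the plus and 105 on the minus strand of the assembled unigene, and 53 unigenes had rows on the minus strand only, 47 on the plus strand only and 1 on both. Assembled sequences can be in either orientation, so the strand does not say whether the site is in the sense RNA. Of the 15 unigenes of the known kind, 8 kept such a row when only plus-strand rows were counted. Of the same rows, 60.8% had a score of 3 and 10.5% a score up to 1, against 27.7% and 31.2% of the other 292 rows of the table. The 292 rows include those of candidate miRNAs and those of unigenes without a description.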

How the data were processed

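Small RNAs of 1 female and 1 male pool were sequenced. The miRNA values are in RPM as deposited (named TPM in the files). Before that, the authors trimmed and cleaned the reads, took out structural RNAs, normalised each unique sequence to library size, and retained lengths between 20 and 24 nt that reached 5 TPM in either library. The unigenes were assembled by the authors from public transcript sequences with iAssembler, and the score in the deposited target table was used as given. The program behind that table is not given in the sources used here. Read totals of the libraries were not used here, and the precision of low values is given by their steps.

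Members were taken as unigenes with a conserved-family row and a description. Values were summed over the different miRNAs listed for a unigene, without a pseudocount, and a ratio of the female to the male sum over 2 or under 0.5 was counted. Groups were assigned by words of the descriptions after these had been read, and the members, lists and rules were chosen with earlier results of these data known. Unlisted pairs were sought by aligning each miRNA to the site bases of the table, with at most 1 gap. Named are, for each group and each transcription factor type, up to 4 unigenes with the lowest score, all unigenes with at least 2 families, all over 2-fold apart with at least 100 TPM in a library and the 8 highest sums, with their most abundant or closest miRNAs. The unigenes UN02474, UN04493, UN05073, UN08763, UN12573, UN15010, UN19848, UN23164 and UN43319 and those sharing the aof-miR156k site were named after their values were seen where that rule did not take them. Alternatives were pseudocounts, a minimum value, rescaling, a 3-fold threshold, strand, score and wording of descriptions. Unigene sequences were read from the authors' supplement for 4 members, whose sites lay at the listed positions. The score and the pair search were run on simulated sites with a mismatch, a G:U pair or neither. No simulated site had a gap, so gapped pairs, 10 of the 21 unlisted pairs at annotated unigenes, were not covered. The ratio count was run on values with a set fold and no counting error. Calculations used Python 3.11.15, numpy 2.4.6, pandas 2.3.3, scipy 1.17.1 and matplotlib 3.10.9.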

Additional observations from a re-analysis of the deposited data

How the results depend on the processing

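No paired analysis was possible because there is 1 library per sex and no test was made. The count of 22 targeting miRNAs over 2-fold apart fell to 14 with a pseudocount of 5 TPM, to 14 with a minimum of 10 TPM in a library and to 14 with plus-strand rows only. The count of 43 unigenes over 2-fold apart was 19 with plus-strand rows only and, in alternatives chosen after seeing the data, 26 without aof-miR156k and 19 with 1 unigene for each set of targeting miRNAs. Its other alternatives gave 32 to 45. Rescaling by the median ratio gave 38, with UN22221, UN05184, UN10001, UN09564 and UN09629 no longer over 2-fold apart. The 101 unigenes became 48 with plus-strand rows only and 51 with 1 for each set of targeting miRNAs. With plus-strand rows only, the known target kind was named for 8 unigenes instead of 15, and 1 unigene instead of 6 had 2 or more families. The median score of rows of the known kind, 2.5, was 1.25 with 1 row for each unigene and family and 1.75 on the plus strand, while that of other rows was 3 in each alternative. Fewer rows enter each plus-strand value. Limiting rows to the median score left every count as it was, since that median, 3, is also the highest score.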
